A study of Mus musculus with 2 samples.

Results

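The genes described are 10 receptors with which macrophages bind modified lipoproteins, sugars, microbes and dying cells. They are Msr1, Marco, Cd36, Scarb1, Scarb2, Mrc1, Stab1, Cd163, Mertk and Axl, taken by symbol and matched to 10 of the 55536 mouse genes in the deposited tables. The RNA was nucleoplasmic, that is, from the nuclear fraction that is not bound to chromatin, and its source was bone-marrow-derived macrophages of C57BL/6J mice. These cells are grown from marrow precursors in culture, and in this study they were exposed to 100 ng/ml lipid A, the TLR4-binding anchor of bacterial lipopolysaccharide, for 20 min. Ribosomal RNA was depleted before sequencing. There is 1 group of 2 libraries. Replicate 1 started from 1 µg of RNA and replicate 2 started from 500 ng, and an effect of that amount cannot be told apart from one of the replicate. Both libraries carry the same donor identifier, and the age and sex of the animals were not collected. Unstimulated cells, cytoplasmic RNA and chromatin RNA were not analysed here, and what follows gives levels, isoforms and the spread between the 2 libraries, and no effect of lipid A.

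Scavenger receptors are surface proteins of unrelated structure that bind polyanionic and oxidised ligands. Efferocytosis is the uptake of apoptotic cells: receptors recognise phosphatidylserine on the dying cell, directly or through a bridging ligand, and the engulfed lipid is then passed to lysosomes and exported again. Macrophages use both systems to clear debris, and nuclear RNA shows the transcripts of these genes before or without export, including transcripts that keep introns.

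The libraries were of similar depth. The first of the 2 deposited quantifications, which shares ambiguous reads among transcripts by estimation, assigned 18194781 expected counts to mouse genes in replicate 1 and 18667499 in replicate 2, so that a count of 0 allows up to 3 counts, or 0.159 and 0.166 CPM (counts scaled to library size) in replicates 1 and 2. Mitochondrial genes held 3.19% of all counts in replicate 1 and 10.5% in replicate 2. All 12 of 12 macrophage markers reached 1 TPM (a unit that corrects for transcript length) in both libraries, with a summed level of 6934 TPM in replicate 1 and 5928 TPM in replicate 2. No marker of neutrophils (0 of 8), B cells (0 of 6), stromal cells (0 of 7), adipocytes (0 of 4) or Kupffer cells (0 of 4) did so in this quantification. Of the other lists 1 of 6 T and NK cell, 2 of 7 dendritic cell, 2 of 6 erythroid, 2 of 6 megakaryocyte, 2 of 7 endothelial and 1 of 4 alveolar macrophage markers reached that level. The highest of these were Fabp4 at 178 and 85.6 TPM, Pf4 at 62.2 and 69.2 TPM and Cd4 at 33.7 and 32.5 TPM in replicates 1 and 2, while Cd3e and Trbc2, which define T cells, stood at 0 in both. Some of these tallies depended on the quantification: in the second, 1 of 4 Kupffer cell, 3 of 6 T and NK cell, 3 of 7 dendritic cell, 3 of 7 endothelial, 1 of 6 erythroid and 1 of 6 megakaryocyte markers reached 1 TPM in both libraries, and the other lists kept their tallies. Among the markers that differed, Vsig4 of Kupffer cells had 3.64 and 2.61 TPM there and Cd3d of T cells 2.90 and 9.43 TPM in replicates 1 and 2, against 0.39 and 0.52 TPM and 0.04 and 0.03 TPM in the first. In bulk RNA of this kind, fewer cells of a type and less RNA per cell cannot be told apart.

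The receptor genes ranged from Stab1, rank 34 of the 22015 nuclear-encoded protein-coding genes by mean TPM, to Marco, rank 10828. Of the 10 genes, 9 reached 1 TPM in both libraries, where 44.9% of those 22015 genes did. Their median level was 59.3 TPM in replicate 1 and 52.0 TPM in replicate 2 (mean of the medians 55.6 ± 5.11, SD, n = 2), beside 0.59 and 0.48 TPM for all protein-coding genes in replicates 1 and 2. From high to low the order was Stab1, Mrc1, Mertk, Msr1, Cd36, Scarb2, Axl, Scarb1, Cd163 and Marco. The second quantification, deposited FPKM and posterior-mean TPM gave the same order of means, while in replicate 2 alone Cd36 stood above Msr1. In the first quantification, ranges over the 2 libraries overlapped between Msr1 and Cd36, between Scarb2 and Axl and between Axl and Scarb1. These neighbours did not differ beyond their spread there. All other neighbours in the order had ranges that did not overlap in that quantification. In the second, Mrc1 (73.4 and 142 TPM in replicates 1 and 2) overlapped with Mertk (49.2 and 75.2 TPM). Mertk overlapped there with Msr1 (49.1 and 62.8 TPM). Axl (24.5 and 19.7 TPM) and Scarb1 (14.0 and 19.4 TPM) did not overlap there. The separation of these neighbours thus depended on the quantification.

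**Figure D1:**
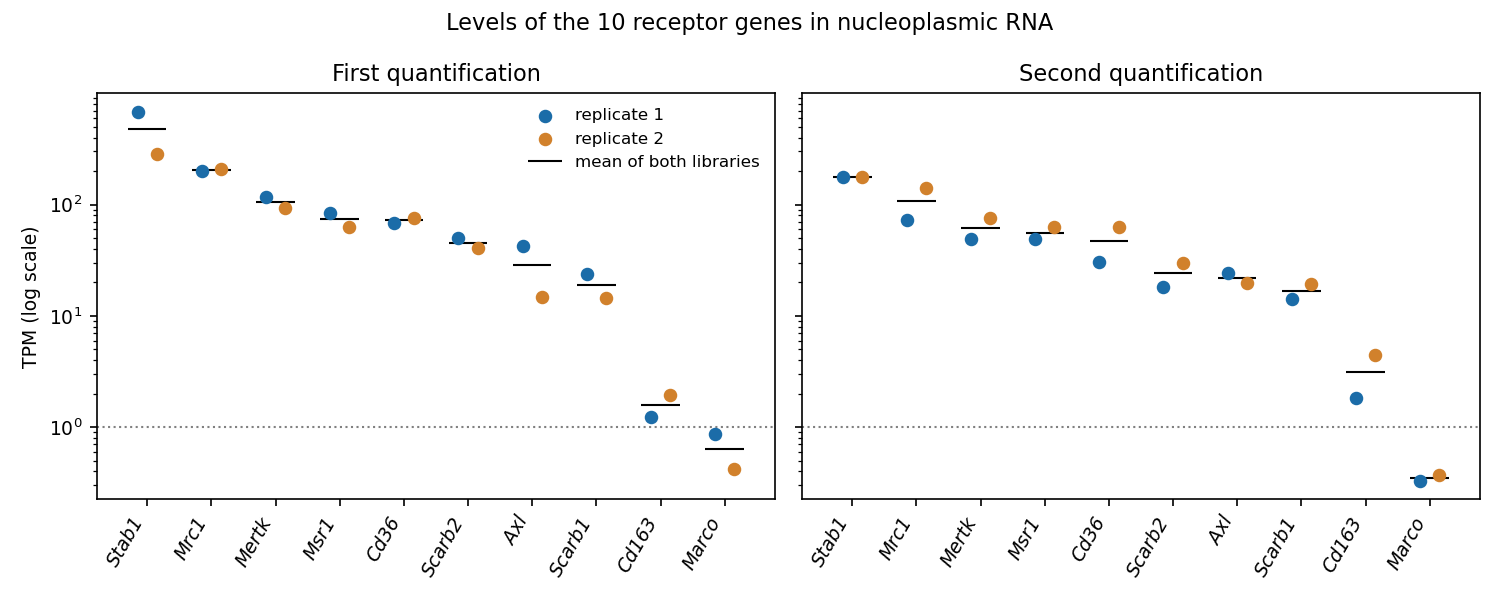
Levels of the 10 receptor genes in TPM on a log axis, in the first (left panel) and the second (right panel) quantification. Each point is 1 library, replicate 1 left of replicate 2, the bar is the mean of both, and the dotted line marks 1 TPM; Marco alone lies below it in both panels.

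Class A receptors are trimeric proteins with a collagen-like stalk that bind modified low-density lipoprotein and bacterial surfaces. Msr1, the founding macrophage scavenger receptor of this class, lies at chr8:39581685-39642673 on the minus strand (mm10). Its level was 84.7 TPM in replicate 1 and 63.2 TPM in replicate 2 (74.0 ± 15.2, SD, n = 2), from 4282 and 4177 counts in replicates 1 and 2, and ranked 559 of 22015 protein-coding genes. The counts were nearly equal, with a log2 ratio of replicate 1 over replicate 2, after scaling to library size, of -0.02 (95% counting interval -0.09 to 0.04). Marco, a receptor of the same class that binds unopsonised particles and bacteria, lies at chr1:120474538-120505024 on the minus strand and had only 28 counts in replicate 1 and 17 in replicate 2. Its level was 0.86 TPM in replicate 1 and 0.42 TPM in replicate 2 (0.64 ± 0.31), rank 10828, and all of it was assigned to Marco-201, the full-length transcript of 518 codons. At this depth the log2 ratio of 0.64 has an interval from -0.26 to 1.62, so no difference between the libraries was detectable for Marco.

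The Msr1 RNA was divided among a long coding form, a short coding form and a transcript that keeps introns. Msr1-202, which encodes 354 codons and ends without the cysteine-rich domain (the type II receptor), had 38.0 TPM in replicate 1 and 33.7 TPM in replicate 2. Msr1-201, which encodes 458 codons and carries that domain (the type I receptor), had 11.1 TPM in replicate 1 and 4.28 TPM in replicate 2. Both coding sequences are identical over 351 codons and then part. They are shown from the last 30 shared bases, with the bases after the point of divergence in capitals, 5′ to 3′ on the minus strand, from the GENCODE M21 transcripts on mm10; the genomic span is chr8:39589419-39608114 for Msr1-201 and chr8:39605975-39608114 for Msr1-202.
Msr1-201: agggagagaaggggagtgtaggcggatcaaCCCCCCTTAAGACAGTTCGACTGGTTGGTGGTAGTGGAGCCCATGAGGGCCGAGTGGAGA
Msr1-202: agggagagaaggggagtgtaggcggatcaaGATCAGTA
The short form reads 8 further bases and stops, whereas the long form goes on for 320 coding bases.

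The retained-intron transcript of Msr1, Msr1-204, held 41.0% of the gene's TPM in replicate 1 and 39.9% in replicate 2, a level of 34.8 and 25.2 TPM in replicates 1 and 2. It joins exon 1 to exon 2, reads through the whole intron after exon 2 (1325 bases, chr8:39631395-39632719) and exon 3, and ends inside the next intron. Of its 2547 bases, 2282 lie outside the exons of every coding transcript, so most of its length is intronic, and it had 1545 counts in replicate 1 and 1372 in replicate 2. The exon-intron boundary that a spliced mRNA lacks is shown (chr8:39632660-39632759, minus strand), with the retained intron in capitals; it opens with the GT of a donor site and the intron closes with AG.
Msr1-204: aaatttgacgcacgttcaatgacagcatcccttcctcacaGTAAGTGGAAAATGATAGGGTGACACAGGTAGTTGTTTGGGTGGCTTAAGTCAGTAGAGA
The log2 ratio of replicate 1 over replicate 2 was 0.11 for Msr1-204 (0.01 to 0.22) and 1.01 for Msr1-201 (0.70 to 1.34), on 257 and 122 counts of Msr1-201 in replicates 1 and 2. Deposited credibility bounds of Msr1-201, whose confidence level the headers do not give, were 8.29 to 12.7 TPM in replicate 1 and 2.98 to 5.23 TPM in replicate 2 and did not overlap. In the second quantification the ratio of Msr1-201 was 1.19, and there a 421-base fragment, Msr1-205, took 33.8% of Msr1 TPM in replicate 1 and 17.9% in replicate 2, against 0.99% and 0% in the first. The share of Msr1-204 was lower there, at 24.1% in replicate 1 and 26.2% in replicate 2. Msr1-203, a coding form of 213 codons, had 0 counts in both libraries in the first quantification, and 0 counts in replicate 1 and 165 in replicate 2 in the second.

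**Figure D2:**
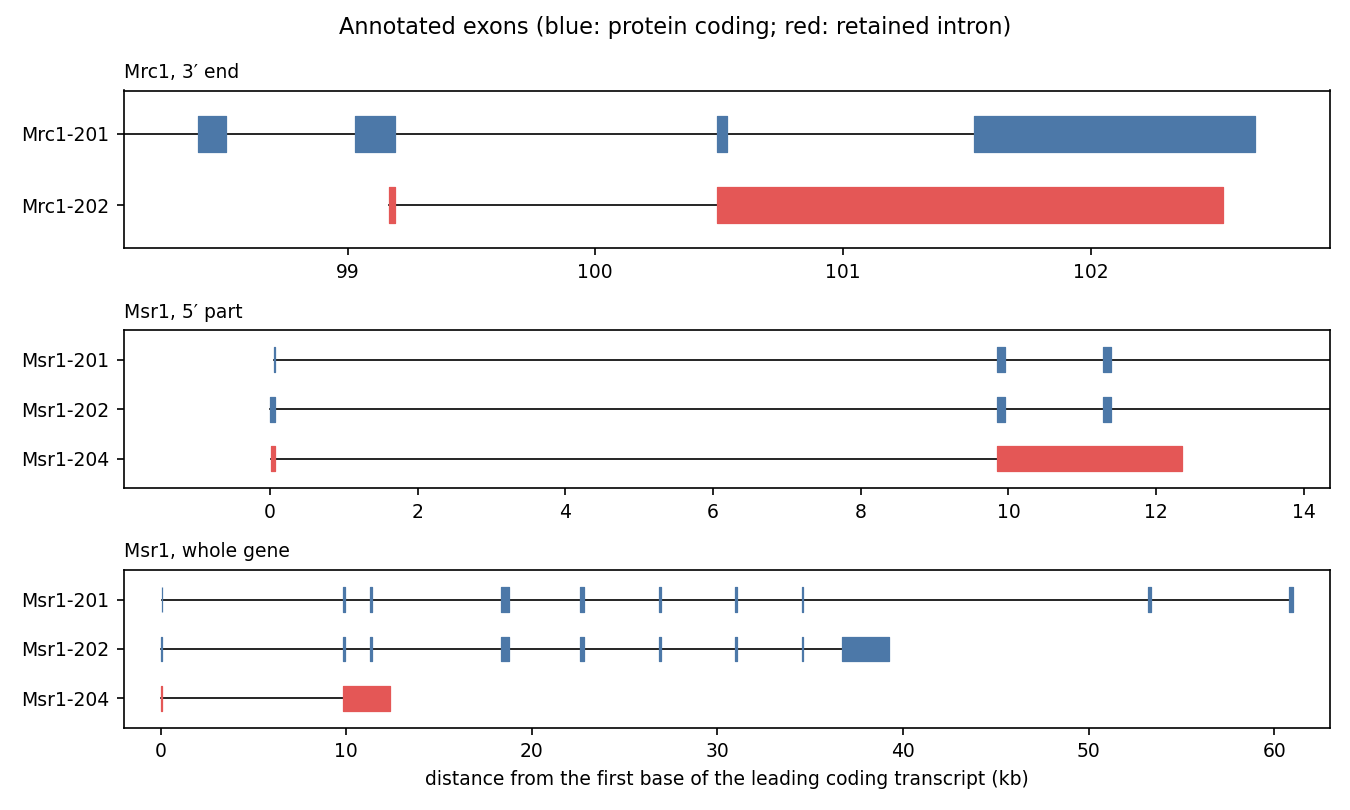
Annotated exons of the Mrc1 3′ end, the Msr1 5′ part and the whole Msr1 gene, to scale, in kb from the first base of the leading coding transcript in the direction of transcription. Boxes are exons and lines introns, blue for protein-coding and red for retained-intron transcripts; the red box of Mrc1-202 covers the last intron of Mrc1, and that of Msr1-204 covers exons 2 and 3 with the intron between them.

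Class B receptors cross the membrane at both ends and carry lipid. Cd36, which takes up oxidised lipoprotein and long-chain fatty acids and binds thrombospondin, lies at chr5:17781690-17888801 on the minus strand. Its level was 68.4 TPM in replicate 1 and 76.0 TPM in replicate 2 (72.2 ± 5.37), from 3295 and 4541 counts in replicates 1 and 2, rank 572. Scaled counts were lower in replicate 1, with a log2 ratio of -0.52 (-0.59 to -0.46). All 6 annotated Cd36 transcripts are classed as coding and 5 of them encode the same 472 codons, so they differ outside the coding sequence. The leading one, Cd36-203, had 35.0 TPM in replicate 1 and 41.5 TPM in replicate 2, followed by Cd36-206 with 18.0 and 15.5 TPM in replicates 1 and 2. Cd36-204 had 281 counts in replicate 1 and 658 in replicate 2, a log2 ratio of -1.29 (-1.49 to -1.08), but only -0.43 in the second quantification. Cd36-201 held 14.1% of the gene's TPM in replicate 1 and 12.0% in replicate 2, and 5.87% and 5.92% in the second quantification. The short coding form Cd36-205, of 142 codons, had 0 counts in both libraries in the first quantification but 18.9% of TPM in replicate 1 and 14.3% in replicate 2 in the second.

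Scarb1 encodes SR-BI, the receptor through which high-density lipoprotein delivers and accepts cholesterol. The gene lies at chr5:125277087-125341094 on the minus strand and had 23.9 TPM in replicate 1 and 14.4 TPM in replicate 2 (19.1 ± 6.68), from 953 and 789 counts in replicates 1 and 2, rank 2962. The log2 ratio was 0.21 (0.08 to 0.35) and was 0.01 (-0.09 to 0.12) in the second quantification. Its 11 transcripts include the main receptor Scarb1-201 (509 codons, 11.6 TPM in replicate 1 and 7.34 TPM in replicate 2) and Scarb1-202, known as SR-BII (506 codons), which has another intracellular tail. The coding sequences part after 467 shared codons, at the end of exon 11. Both are shown with the bases after that point in capitals (minus strand; chr5:125281174-125283928 for Scarb1-201, chr5:125277806-125283928 for Scarb1-202).
Scarb1-201: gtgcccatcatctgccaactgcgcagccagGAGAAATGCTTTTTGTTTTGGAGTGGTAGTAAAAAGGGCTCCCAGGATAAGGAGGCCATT
Scarb1-202: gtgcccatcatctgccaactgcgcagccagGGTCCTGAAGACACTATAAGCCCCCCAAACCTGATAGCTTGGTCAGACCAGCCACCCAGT
Scarb1-202 was estimated at 15.2 counts in replicate 1 and 95.4 in replicate 2, which is 1.55% and 13.2% of the gene's TPM in replicates 1 and 2. Its log2 ratio was -2.68 (-3.62 to -1.93) in the first quantification and -1.55 in the second. The deposited credibility bounds overlapped, at 0.00 to 1.54 TPM in replicate 1 and 1.07 to 2.86 TPM in replicate 2, and Scarb1-202 has 0 bases of its own outside the exons of other coding transcripts, so this split depends on how each program shares reads.

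Scarb1 also carried much intronic RNA. Scarb1-207 has 2 exons and 3093 bases, of which 2894 lie outside the exons of all coding forms. It reads past the same exon end and keeps 949 of the 2665 bases of the next intron. Its 175 counts in replicate 1 and 202 in replicate 2 are for the whole transcript and cannot be assigned to that intron. Its boundary is shown with the intron in capitals (chr5:125283839-125283938, minus strand), and its exonic end matches the shared stretch printed for Scarb1-201 and Scarb1-202.
Scarb1-207: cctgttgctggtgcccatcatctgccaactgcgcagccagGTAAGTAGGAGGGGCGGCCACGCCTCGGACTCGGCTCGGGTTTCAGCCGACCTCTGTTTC
Scarb1-211, a single-exon transcript of 2459 bases that lies outside the exons of all coding forms, had 100 counts in replicate 1 and 59 in replicate 2. Scarb1-209 had 122 counts in replicate 1 and 34.9 in replicate 2, a log2 ratio of 1.73 (1.19 to 2.33). Together the 4 retained-intron transcripts held 45.5% of Scarb1 TPM in replicate 1 and 35.9% in replicate 2, but 35.2% in replicate 1 and 42.5% in replicate 2 in the second quantification, so the direction between the libraries depended on the program. Short forms were placed differently too. Scarb1-206, of 638 bases, had 3.42 and 0 counts in the first quantification and 62.4 and 31.4 in the second, and Scarb1-208, of 358 bases, had 0 in both libraries in the first and 15.5 and 18.7 in the second, in replicates 1 and 2.

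Scarb2 encodes LIMP-2, a relative of CD36 that sits in lysosomal membranes. It lies at chr5:92441314-92506833 on the minus strand and had 50.2 TPM in replicate 1 and 40.9 TPM in replicate 2 (45.5 ± 6.58), from 4181 and 4154 counts in replicates 1 and 2, rank 1105. Its log2 ratio was -0.05 (-0.11 to 0.01). The coding transcript Scarb2-201 held 96.2% of its TPM in replicate 1 and 95.9% in replicate 2. The retained-intron transcript Scarb2-202 held the rest, 3.81% in replicate 1 and 4.06% in replicate 2.

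Mrc1, Stab1 and Cd163 are receptors of tissue macrophages with other folds. Mrc1, the mannose receptor CD206, binds mannosylated glycoproteins through C-type lectin domains. It lies at chr2:14229392-14332057 on the plus strand. In the first quantification it was the member that differed least in TPM between the libraries relative to its level, with 202 TPM in replicate 1 and 209 TPM in replicate 2 (205 ± 4.71), from 18737 and 20746 counts in replicates 1 and 2, rank 142. The gene's log2 ratio was -0.21 (-0.24 to -0.18). The second quantification gave 73.4 TPM in replicate 1 and 142 TPM in replicate 2, with a count ratio of -0.10. There the member that differed least in TPM was Stab1, with 176 and 177 TPM in replicates 1 and 2.

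The share of Mrc1 RNA assigned to a transcript that keeps the last intron differed between the libraries. Mrc1-202 keeps intron 29, the last of the gene (997 bases, chr2:14329925-14330921), and 997 of its 2069 bases lie outside the coding exons. Its boundary with exon 29 is shown with the intron in capitals (chr2:14329885-14329984, plus strand).
Mrc1-202: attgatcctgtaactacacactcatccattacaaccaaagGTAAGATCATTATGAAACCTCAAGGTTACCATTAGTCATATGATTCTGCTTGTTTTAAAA
This transcript had 618 counts in replicate 1 and 2419 in replicate 2, a level of 17.5 and 55.8 TPM in replicates 1 and 2, and 8.64% and 26.7% of the gene's TPM. These counts are for the whole transcript, exonic bases included, and cannot be assigned to the intron. The log2 ratio was -2.03 (-2.16 to -1.90). The second quantification, with 559 counts in replicate 1 and 2273 in replicate 2, gave -1.77, and the deposited credibility bounds, 14.8 to 18.1 TPM in replicate 1 and 50.3 to 56.2 TPM in replicate 2, did not overlap. The spliced coding transcript Mrc1-201 (30 exons, 1456 codons) had 18120 counts in replicate 1 and 18328 in replicate 2, a log2 ratio of -0.08 (-0.11 to -0.05). The larger ratio was thus that of the transcript with the intron, and whether it follows RNA input or the larger mitochondrial share of replicate 2 was not tested. Mir511, a microRNA gene inside an intron of Mrc1 on the same strand, shares no exonic base with it and had 0 counts in both libraries in the first quantification and 146 and 115 in replicates 1 and 2 in the second.

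Stab1 encodes stabilin-1, a large endocytic receptor for acetylated lipoprotein, SPARC and phosphatidylserine. It lies at chr14:31139013-31168641 on the minus strand and was the highest member, with 680 TPM in replicate 1 and 282 TPM in replicate 2 (481 ± 281), from 36467 and 22010 counts in replicates 1 and 2, rank 34. The log2 ratio of scaled counts was 0.67 (0.64 to 0.69) and that of TPM 1.27. The second quantification gave 176 TPM in replicate 1 and 177 TPM in replicate 2, with a count ratio of 0.74, so the gap in TPM between the libraries depended on the quantification and the gap in counts did not. Stab1 is also known from sinusoidal endothelium. Endothelial markers reached 1 TPM in 2 of 7 cases, Stab2 and Kdr, and summed to 27.0 TPM in replicate 1 and 16.5 TPM in replicate 2, with Clec4g at 0 in both and Cdh5 at 0.08 and 0.05 TPM in replicates 1 and 2. Stab2, a scavenger receptor related to Stab1, had 20.0 TPM in replicate 1 and 12.2 TPM in replicate 2, and its count ratio of 0.72 was close to that of Stab1. Kdr had 5.95 and 3.68 TPM in replicates 1 and 2, with a count ratio of 0.32. Pecam1 had 0.92 TPM in replicate 1 and 0.60 TPM in replicate 2, but 3.22 and 7.67 TPM in replicates 1 and 2 in the second quantification. The part of these markers in the Stab1 ratio was not tested.

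In the first quantification much of the Stab1 TPM lay on short transcripts, where few counts make a high TPM. Stab1-202, of 242 bases, had 121 counts in replicate 1 and 78.5 in replicate 2, which made 125 and 58.3 TPM in replicates 1 and 2. Stab1-207, of 413 bases, had 403 counts in replicate 1 and 21.8 in replicate 2, or 103 and 4.34 TPM in replicates 1 and 2, and its credibility bounds of 79.4 to 114 TPM in replicate 1 and 0.26 to 9.70 TPM in replicate 2 did not overlap. The second quantification placed little there, with 4.93 and 1.38 TPM for Stab1-202 and 2.94 and 0.47 TPM for Stab1-207 in replicates 1 and 2. Neither has a base outside the exons of other coding transcripts. The full-length Stab1-201 (69 exons, 2571 codons) held 73.7% of the gene's counts in replicate 1 and 73.1% in replicate 2 but only 26.7% and 31.6% of TPM (43.7% and 40.1% in the second quantification) in replicates 1 and 2, with 26862 counts in replicate 1 against 16084 in replicate 2 and a log2 ratio of 0.68 (0.65 to 0.71). Of the retained-intron forms, Stab1-209 had the most counts in the first quantification, 2202 in replicate 1 and 1619 in replicate 2, with ratios of 0.38 in the first and 0.49 in the second quantification. Stab1-208, Stab1-206 and Stab1-205 had 1854, 1368 and 1241 counts in replicate 1 and 1438, 853 and 1108 in replicate 2, and Stab1-213 had 118 and 56.6 in replicates 1 and 2. Stab1-205 took 13.4% of the gene's TPM in replicate 1 and 20.1% in replicate 2 in the second quantification, against 4.33% and 7.61% in the first. Stab1 shares 112 exonic bases at its end with Nt5dc2 on the opposite strand, a gene of 354 counts in replicate 1 and 280 in replicate 2. No source used here gives the strand setting of the counting, so reads over those bases may be split between the pair.

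Cd163, the receptor for haemoglobin-haptoglobin complexes, lies at chr6:124304656-124330527 on the plus strand and was close to the lower end, with 1.24 TPM in replicate 1 and 1.94 TPM in replicate 2 (1.59 ± 0.495), rank 9550. It had 94 counts in replicate 1 and 182 in replicate 2, a log2 ratio of -1.01 (-1.39 to -0.65). The second quantification gave Cd163 471 counts in replicate 1 and 826 in replicate 2, which is 5.01 and 4.54 times the first in replicates 1 and 2. For the median gene that factor was 1.40 and 1.65, and 7.03% and 9.66% of 14858 genes had a factor of 4 or more, in replicates 1 and 2. With those counts the ratio was -0.55 (-0.72 to -0.39). Cd163-202, a form with 1159 codons where Cd163-201 has 1121, had 0 counts in replicate 1 and 36.4 in replicate 2, with credibility bounds of 0.00 to 0.94 and 0.04 to 1.11 TPM in replicates 1 and 2 that overlapped. The retained-intron form Cd163-203 had 7.25 counts in replicate 1 and 12.1 in replicate 2.

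Mertk and Axl belong to the TAM receptor kinases, which bind phosphatidylserine through the bridging proteins Gas6 and protein S and dampen inflammatory signalling. Mertk, the main efferocytosis kinase of resting macrophages, lies at chr2:128698956-128802894 on the plus strand and had 117 TPM in replicate 1 and 93.1 TPM in replicate 2 (105 ± 17.1), from 9055 and 8811 counts in replicates 1 and 2, rank 355. Its log2 ratio was -0.02 (-0.06 to 0.02), and its coding transcript Mertk-201 (994 codons) held 98.1% of TPM in replicate 1 and 99.0% in replicate 2. In the second quantification that share was 89.8% and 93.4%, with the remainder on Mertk-202, a transcript of 2744 bases with no annotated coding sequence. Mertk-202 had 108 counts in replicate 1 and 56.8 in replicate 2 in the first quantification, but 785 and 570 in replicates 1 and 2 in the second.

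Axl, which is known to rise in macrophages under inflammatory conditions, lies at chr7:25757273-25788705 on the minus strand. Its level was 42.3 TPM in replicate 1 and 14.9 TPM in replicate 2 (28.6 ± 19.4), from 2571 and 1205 counts in replicates 1 and 2, rank 1983. Scaled counts were higher in replicate 1, with a log2 ratio of 1.03 (0.93 to 1.13), and 1.04 (0.96 to 1.13) in the second quantification. The full-length Axl-201 (888 codons, 31.1 TPM in replicate 1 and 12.1 TPM in replicate 2) carried most of this, with a log2 ratio of 1.02. Axl-202 (879 codons) lacks a cassette of 27 bases, shown in capitals with the joined stretch of Axl-202 beneath it (chr7:25770736-25773372, minus strand).
Axl-201: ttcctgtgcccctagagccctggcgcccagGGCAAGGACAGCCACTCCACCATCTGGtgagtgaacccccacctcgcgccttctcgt
Axl-202: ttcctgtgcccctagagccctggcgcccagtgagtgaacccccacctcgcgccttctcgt
The first quantification gave Axl-202 2.70 counts in replicate 1 and 0 in replicate 2, and the second gave 440 and 126 in replicates 1 and 2, so the use of the cassette cannot be read from these tables. Among intron-keeping Axl forms, Axl-205 had 124 counts in replicate 1 and 57.8 in replicate 2 and keeps the whole intron after exon 15 (357 bases, chr7:25764065-25764421). The boundary is shown with the intron in capitals (chr7:25764362-25764461, minus strand).
Axl-205: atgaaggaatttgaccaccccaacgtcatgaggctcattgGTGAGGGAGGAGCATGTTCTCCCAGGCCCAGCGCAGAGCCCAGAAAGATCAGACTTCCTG
Retained-intron transcripts held 25.4% of Axl TPM in replicate 1 and 19.1% in replicate 2, but 55.6% and 57.3% in replicates 1 and 2 in the second quantification. Most of that gap lay on Axl-207 and Axl-208, of 455 and 382 bases, which held 6.33% and 3.30% of TPM as means of both libraries in the first quantification but 20.9% and 19.5% in the second. Axl-203, of 602 bases, held 5.67% in the first and 8.90% in the second. By counts, retained-intron transcripts held 6.56% of Axl in replicate 1 and 5.84% in replicate 2 in the first quantification. In the second they held 13.0% and 14.8% of its counts in replicates 1 and 2.

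Between the libraries the receptor genes were on balance level. On counts scaled with TMM factors, 3 members were higher in replicate 1 (Stab1, Axl and Scarb1), 3 were lower (Mrc1, Cd36 and Cd163) and the intervals of 4 included 0. Members past 2-fold with an interval clear of 0 numbered 2 of 10, Axl and Cd163, where 8.02% of the 15557 genes whose scaled counts averaged 10 or more did so. In the second quantification it was 1 of 10, Axl, beside 11.8% of 24470 genes. The median log2 ratio of the members was -0.02, beside -0.0039 for all genes. On the TPM scale the medians were 0.38 for the members and 0.35 for all genes, and on that scale Stab1 and Axl were past 2-fold and Cd163 was not. The call on Cd163 was also lost with DESeq2 size factors (-0.98), with library totals (-0.91) and with a prior count of 2 (-0.998). These are comparisons of 2 libraries, with intervals for counting error only, and carry no test between conditions.

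**Figure D3:**
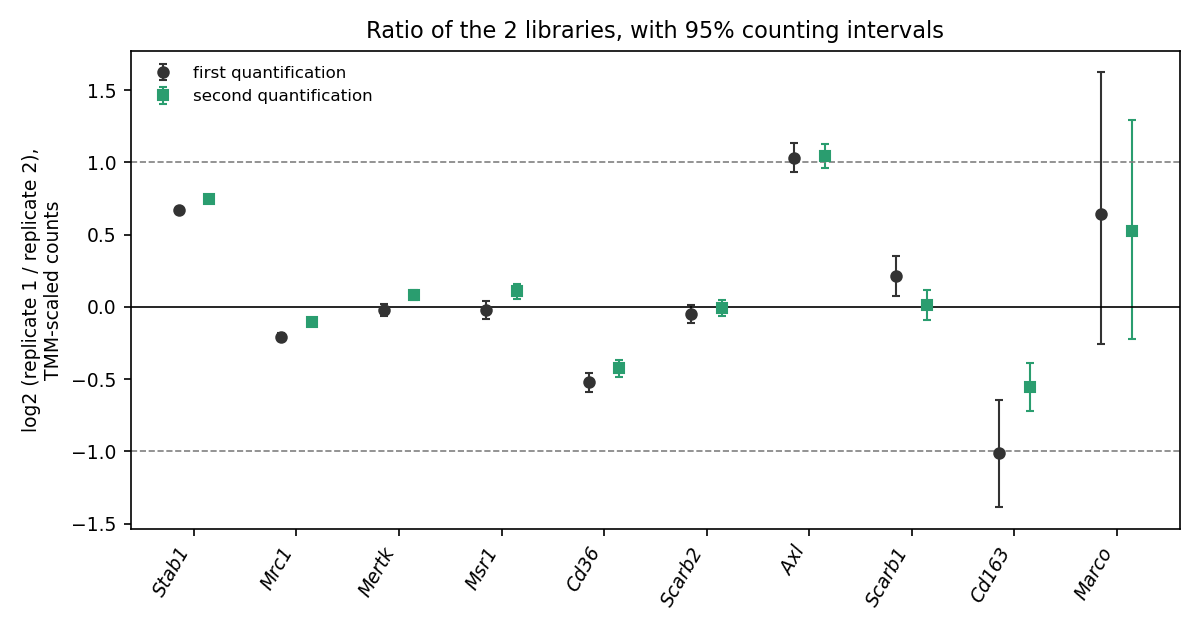
Log2 ratio of replicate 1 over replicate 2 for each receptor gene, from TMM-scaled counts, in the first (circles) and the second (squares) quantification. Bars are 95% counting intervals and dashed lines mark 2-fold; Axl lies past the upper line in both, and Cd163 is just past the lower line in the first quantification alone.

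Annotated transcripts that keep introns were present for 7 of the 10 genes. Their median share of the gene's TPM was 25.4% in replicate 1 and 26.7% in replicate 2 (26.1 ± 0.94, SD, n = 2), beside 32.0% and 32.9% over the 6517 genes that have one and average at least 1 TPM, in replicates 1 and 2. By counts, which do not weight short transcripts up, the members' median was 9.69% and that of all such genes 19.6%, as means of both libraries. Shares of TPM in the first quantification averaged 42.0 ± 3.70% for Stab1, 40.7 ± 6.81% for Scarb1 and 40.4 ± 0.79% for Msr1. They averaged 22.3 ± 4.44% for Axl, 17.7 ± 12.8% for Mrc1, 11.2 ± 1.26% for Cd163 and 3.94 ± 0.18% for Scarb2. The second quantification gave another order of these TPM shares, with 56.5 ± 1.16% for Axl, then Stab1 with 51.1% in replicate 1 and 56.9% in replicate 2, 38.9 ± 5.17% for Scarb1 and 25.1 ± 1.49% for Msr1. Mrc1 followed there at 12.8 ± 8.78%, Scarb2 at 6.16 ± 0.96% and Cd163 at 3.60 ± 0.28%, so the TPM shares of Axl, Msr1, Scarb2 and Cd163 moved by more than 1.5 times between the programs. By counts, Scarb1, Msr1 and Stab1 led in that order in both quantifications. Their mean shares of counts were 40.9%, 34.5% and 25.6% in the first and 52.4%, 31.6% and 24.0% in the second. Axl held 6.20% of its counts on such transcripts in the first and 13.9% in the second. Cd36, Marco and Mertk have no transcript of this class in the annotation, which says nothing of unspliced RNA from their introns.

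**Figure D4:**
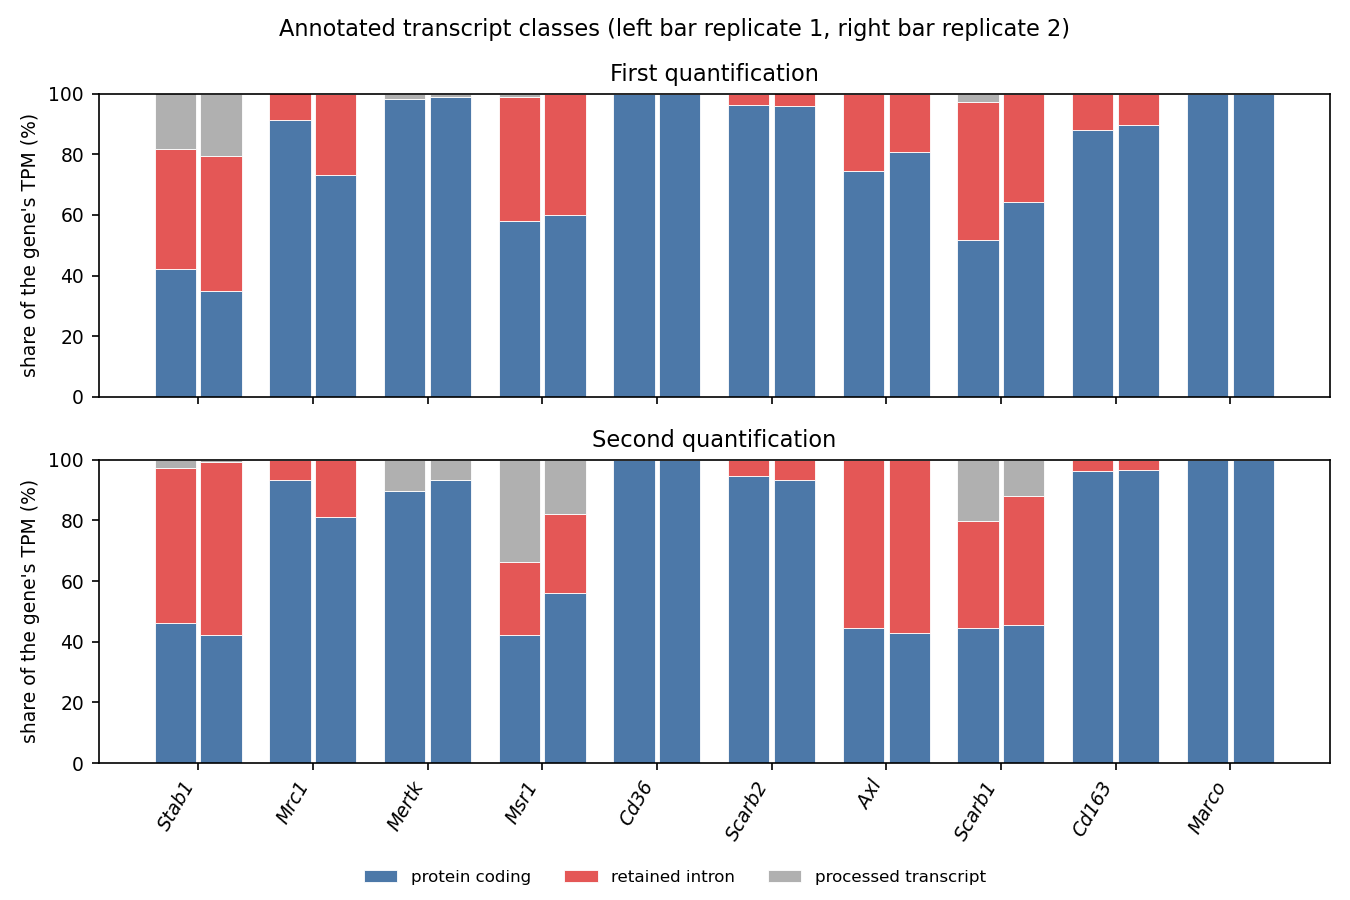
Share of each gene's TPM by annotated transcript class, with replicate 1 as the left and replicate 2 as the right bar of each pair, in the first (upper) and the second (lower) quantification. Retained-intron transcripts (red) hold 8.64% of Mrc1 TPM in replicate 1 and 26.7% in replicate 2, and more of Axl in the lower than in the upper panel.

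At the level of transcripts the libraries differed more often than at the level of genes, for the receptors as for all genes. Of the 54 annotated transcripts of the 10 genes, 39 had a mean scaled count of 10 or more in the first quantification, and 15 of 39 were past 2-fold, 10 higher and 5 lower in replicate 1; over all transcripts 25.2% of 40239 were. In the second quantification it was 15 of 48, beside 23.7% of 61301. Past 2-fold in the same direction in both were 10 of 39, beside 13.9% of 38993. Higher in replicate 1 were Msr1-201, Scarb1-209, Stab1-204, Stab1-207, Stab1-211 and Stab1-212. Lower were Mrc1-202, Scarb1-202, Cd163-202 and Stab1-210, the last with 0 counts in replicate 1 and 35.2 in replicate 2. The gene Stab1 gave 5 of these 10, and its transcripts overlap, so they are not separate observations. By counts, Mrc1-202 was the most abundant of the 10 in replicate 2 in both quantifications. In replicate 1 it was Stab1-204 in the first, with 1480 counts in replicate 1 and 561 in replicate 2, and Msr1-201 in the second, with 616 and 322 in replicates 1 and 2, where Stab1-204 had 414 and 134.

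**Figure D5:**
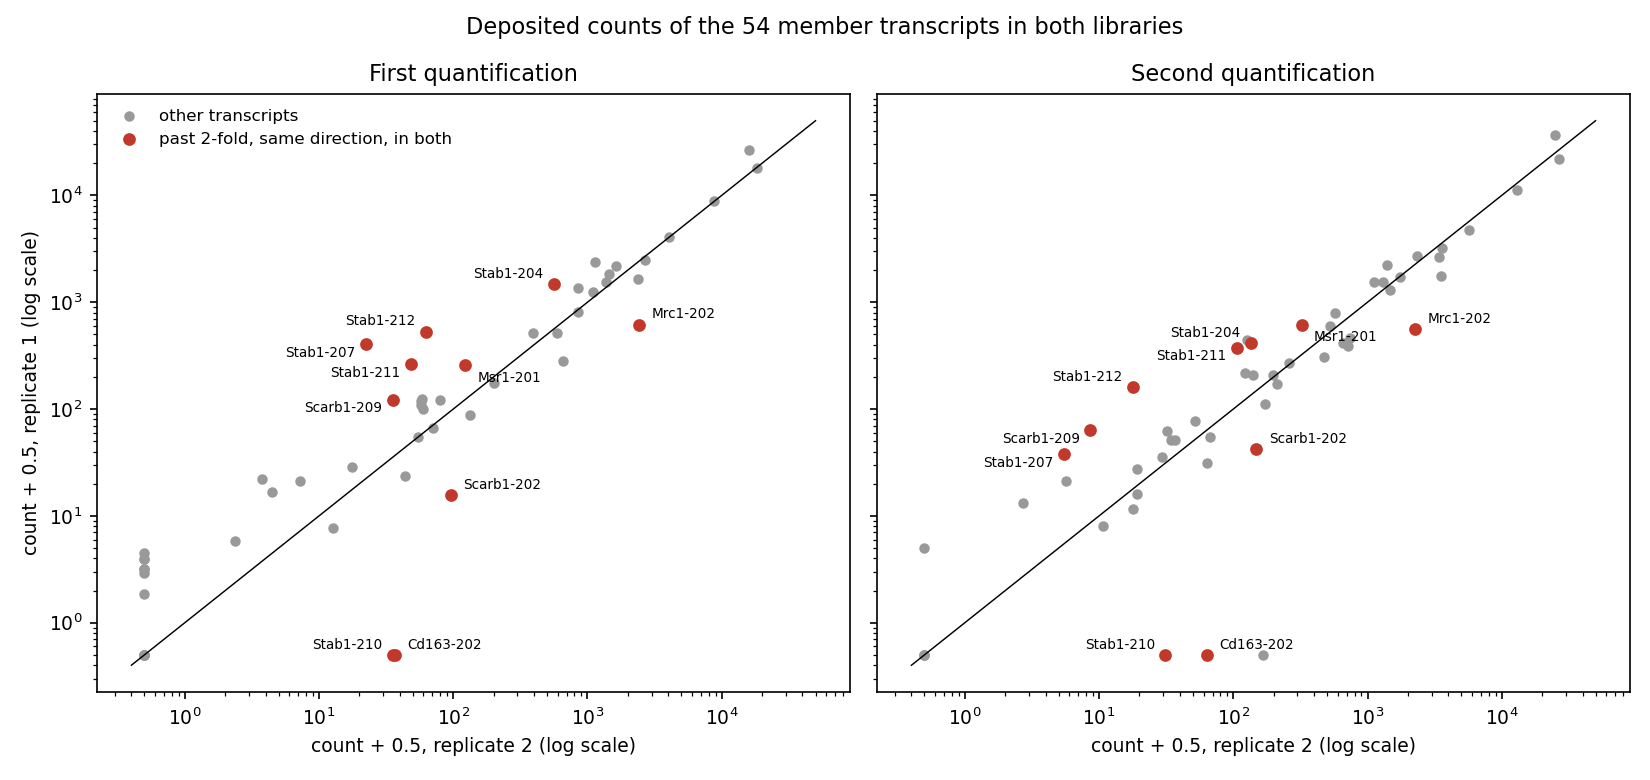
Deposited counts of the 54 transcripts of the receptor genes, with replicate 1 on the vertical and replicate 2 on the horizontal axis, both log scales after adding 0.5, in the first (left) and the second (right) quantification. The line marks equal counts, and the 10 transcripts past 2-fold in the same direction in both are red and named; Mrc1-202 lies furthest to the right among them.

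The other genes of these pathways were largely present too. Of 84 genes in 8 lists, 68 (81%) reached 1 TPM in both libraries, where 44.9% of protein-coding genes did. In the first quantification, scaled counts averaged 10 or more for 74 of them. Of these 74, 3 (4.05%) were past 2-fold, all higher in replicate 1, where 8.02% of the 15557 genes were past it in either direction. In the second, 4 were past it, beside 11.8% of 24470 genes. They were the same 3 and Gulp1, which was lower in replicate 1 (log2 ratio -1.38). These lists were written down with earlier results of these data known. Among the bridging ligands, 9 of 9 reached 1 TPM. Calr, which encodes calreticulin, an eat-me signal on dying cells, was the highest with 291 TPM in replicate 1 and 333 TPM in replicate 2, followed by C1qb, a complement C1q chain that coats dying cells, at 321 and 244 TPM in replicates 1 and 2. Pros1, which encodes protein S, the ligand of Mertk, was the lowest at 6.24 and 4.85 TPM in replicates 1 and 2.

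Other phosphatidylserine receptors and integrins reached 1 TPM in 7 of 11 cases. Cd300lf, with 101 TPM in replicate 1 and 84.1 TPM in replicate 2, and Cd300a, at 75.7 and 75.2 TPM in replicates 1 and 2, were the highest, and both encode receptors of the CD300 family. Timd4, the TIM-4 receptor of resident macrophages, was the lowest with 0 counts in both libraries. Of the engulfment machinery 11 of 13 reached 1 TPM, led by Abca1, a cholesterol exporter linked to engulfment, with 178 TPM in replicate 1 and 146 TPM in replicate 2, and by Dock2, an activator of Rac, at 202 and 121 TPM in replicates 1 and 2. Gulp1, an engulfment adaptor, had 0 counts in both libraries in the first quantification.

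Nuclear receptors and lipid efflux genes were all detected, 8 of 8. Apoe, the apolipoprotein that accepts exported cholesterol, had 1147 TPM in replicate 1 and 601 TPM in replicate 2. Abcg1, a sterol exporter, followed at 45.8 and 37.3 TPM in replicates 1 and 2, and Rxrb, a partner of lipid-sensing nuclear receptors, was the lowest at 14.1 and 6.92 TPM in replicates 1 and 2. Other scavenger receptors reached 1 TPM in 10 of 17 cases. They were led by Lrp1, a large endocytic receptor that also binds calreticulin, with 424 TPM in replicate 1 and 382 TPM in replicate 2, and by Cd14, the lipopolysaccharide co-receptor, at 364 and 308 TPM in replicates 1 and 2. Cd209b, a C-type lectin, had 0 counts in both.

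Of the signalling partners of CD36, 9 of 11 reached 1 TPM. The highest were Tlr2 with 103 TPM in replicate 1 and 47.1 TPM in replicate 2 and the Src-family kinase Lyn at 76.2 and 61.0 TPM in replicates 1 and 2, while Cav1, which encodes caveolin, had 0 counts in both libraries in the first quantification. Sheddases and signal regulators did so in 7 of 8 cases. The ubiquitin ligase genes Cblb, with 78.5 TPM in replicate 1 and 42.2 TPM in replicate 2, and Cbl, at 55.1 and 40.9 TPM in replicates 1 and 2, were the highest and Socs1 the lowest, at 0.54 and 0.28 TPM in replicates 1 and 2. The lysosomal partners of Scarb2 were all detected, 7 of 7: Psap, the saposin precursor, had 4938 TPM in replicate 1 and 3519 TPM in replicate 2, and the membrane protein gene Lamp1 354 and 312 TPM in replicates 1 and 2.

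The 3 pathway genes past 2-fold in the first quantification, named after their values were seen, all had higher scaled counts in replicate 1, as Axl did. Abca7, a lipid transporter of the engulfment list, had 1107 counts in replicate 1 and 527 in replicate 2 (log2 ratio 1.01). Nr1h3, which encodes the oxysterol receptor LXR alpha, had 590 counts in replicate 1 and 233 in replicate 2 (1.28). Socs3, a feedback inhibitor of cytokine receptors, had 3015 counts in replicate 1 and 1161 in replicate 2 (1.32).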

How the data were processed

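Each library came with 3 tables made from it without pooling. In the first quantification, the authors' gene and transcript tables give expected counts, FPKM, TPM and posterior-mean TPM with credibility bounds, under RSEM's column names, per the file headers. In the second, the deposited transcript table gives estimated counts and TPM under kallisto's column names, again per the file headers. The notes deposited with them name mm10 and GENCODE M21. No source used here gives program versions, the strand setting or filters. A size range of 250 to 400 is given per the labels.

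Expected counts were rounded to whole numbers. Symbols, transcript classes, coordinates and sequences came from GENCODE M21, and all 10 members matched. Entries that are not mouse genes (0.823% of counts in replicate 1, 0.207% in replicate 2) stayed out of library sizes. TMM factors from edgeR 4.0.16 (R 4.3.3) scaled the libraries, and estimated counts of the second quantification were summed per gene. A prior count of 0.5 was added for log2 ratios, whose 95% intervals are exact binomial (Clopper-Pearson). A gene or transcript was called past 2-fold where its mean scaled count was 10 or more, its log2 ratio was beyond 1 in size and the interval excluded 0. The reads carry no molecular identifiers, so PCR copies may be counted, and intervals and limits reflect counting error only. This calculation was tested on simulated data first. Other software was scipy 1.17.1, pandas 2.3.3, numpy 2.4.6 and matplotlib 3.10.9 under Python 3.11.15.

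Named were all 10 members, each member transcript with a mean of 5% or more of its gene's TPM in either quantification (42 of 54), the 2 highest and the lowest gene of each pathway list, and genes that overlap a member's exons. The lowest gene of 1 list is not reported here. The members and lists were chosen with earlier results of these data known. The comparison of transcripts between the libraries, and the sequences and other transcripts shown, were chosen after values were seen. The labels do not say whether the replicates are separate cultures or animals. Alternatives were size factors from DESeq2 1.42.0, scaling by library totals, TPM ratios with a pseudocount of 0.1, other minimums and prior counts, FPKM, posterior-mean TPM, TPM over nuclear-encoded protein-coding genes, each replicate left out in turn, and the second quantification.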

Additional observations from a re-analysis of the deposited data

Results flagged for a closer look

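Of the 5 annotated genes that lie inside introns of the receptor genes and share no exonic base with them, 2 gave counts above the 3 that a count of 0 allows in both libraries, in the first quantification, and 3 gave 2 or fewer. In the second, all 5 had more than 3 counts in both libraries. The lowest there was the microRNA gene Mir6415 inside Scarb2, with 27 and 19 in replicates 1 and 2. Gm14011, an antisense gene inside Mertk (chr2:128751271-128753705), had 7 counts in replicate 1 and 22 in replicate 2 in the first quantification. The second gave it 175 and 184 in replicates 1 and 2. Gm42633, a gene of unknown class inside Scarb1 on the same strand (chr5:125318681-125321444), had 87 counts in replicate 1 and 80 in replicate 2. No library without lipid A was analysed here, and the source of these reads was not tested.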

How the results depend on the processing

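With 1 group no test between conditions was made, and the precision of Marco (28 and 17 counts in replicates 1 and 2) and Cd163 (94 and 182) is limited by depth. No paired analysis was possible because there is 1 group. The number of members at 1 TPM stayed between 8 and 9 at other minimums, in the second quantification and without either replicate. In the first quantification the leading transcript of each member was the same by counts and without either replicate. It was also the same by means of both libraries in the second. In single libraries of the second, Msr1-205 led Msr1 in replicate 1, with 33.8% of TPM against 25.4% for Msr1-202. Scarb1-207 led Scarb1 there in replicate 2, with 28.6% of TPM against 25.9% for Scarb1-201. The order of levels was the same in FPKM, posterior-mean TPM and the second quantification and without replicate 2, but without replicate 1, an alternative chosen after seeing the data, 8 of 10 members kept their place and Cd36 stood above Msr1. The members' median of 55.6 TPM was 224.5 TPM when scaled over nuclear-encoded protein-coding genes, 36.9 TPM in the second quantification and 52.0 to 59.3 TPM without either replicate. Their median log2 ratio of -0.02 was 0.075 with library totals, 0.38 on the TPM scale and 0.049 in the second quantification, so its sign is not settled. Members past 2-fold, 2 on TMM factors, numbered 1 (Axl) with DESeq2 size factors, library totals and the second quantification. The median retained-intron share of 26.1% was 9.69% by counts and 25.4% to 26.7% without either replicate. For single members, 12 of the posterior-mean and second-quantification TPM values lay within 1 SD of the reported one and 8 did not. Of the ratios under other scalings, another prior count and the second quantification 34 kept direction and call, 10 moved, 5 lost a call and 1 gained it. Leaving out a replicate for a TPM, and a minimum count for a ratio, cannot change these verdicts and are not counted. The cause of these shifts was not tested.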
